A study of Mus musculus with 12 samples.

Results

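Genomic imprinting restricts expression of a gene to the copy inherited from 1 parent, and the genes described here are expressed in somatic cells from the paternal copy. The set consists of 10 gene symbols, Peg3, Mest, Snrpn, Ndn, Plagl1, Igf2, Impact, Nnat, Zdbf2 and Peg10, of 37991 genes in the count table. A member was taken from the table where the symbol of its Ensembl identifier matched, which found 9 of the 10. The identifier that carries the symbol Snrpn in the annotation used here was not among the table's identifiers, so Snrpn has no value below. All 9 matched members passed the filter on low counts and were tested with 16708 genes in all.

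RNA was sequenced from primordial germ cells, the embryonic precursors of eggs and sperm, of 12 mouse embryos at E13.5 (embryonic day). The 4 groups were female embryos labelled CKO, a conditional knockout of Ezh2 (n = 2), female embryos labelled Ctrl (n = 3), male CKO (n = 3) and male Ctrl (n = 4). All were on a C57BL/6 background, germ cells were sorted from each embryo separately, and each library is 1 embryo. The sample titles say Ctrl and CKO, while the column headers of the counts say WT and KO for the same libraries. The labels give neither the Cre driver, the Ezh2 alleles behind Ctrl or WT, nor the litters. The enzyme made from Ezh2 is the catalytic part of the Polycomb complex PRC2, which places the repressive histone mark H3K27me3. The question addressed here is how paternally expressed imprinted genes were expressed in germ cells of each sex with and without Ezh2.

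Imprinted genes are usually controlled in clusters by a stretch of DNA that is methylated on 1 parental copy. Germ cells erase this methylation while they migrate to and settle in the gonad, and each sex later writes its own pattern, so that germ cells at this stage can in principle use both copies. Many paternally expressed imprinted genes promote growth of the embryo or placenta and are abundant in mesenchymal tissues. The counts were not split by parental copy, so the values below are the sum over both copies.

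Libraries held between 26180685 and 35299206 counts, and 1 CPM (counts relative to library size, after TMM scaling) stood for 24.2 to 34.2 counts. Summed markers of germ cells lay between 6320 and 7180 CPM in every library, with Dazl the most abundant. Summed markers of stromal cells, in which several members are abundant, reached at most 32.5 CPM. Sertoli cell markers summed to between 15.7 and 45.4 CPM in males and 10.7 to 13.8 CPM in females, and pregranulosa markers to 14.7 to 25.1 CPM in females and 4.01 to 9.01 CPM in males. Most of the female Sertoli sum was Aard, at 12.2 and 10.5 CPM on average in female Ctrl and CKO. In male Ctrl and CKO Aard was at 11.5 and 13.7 CPM on average. Amh and Cst9 had no counts in females. Sox9 averaged 0.101 and 0.0439 CPM in female Ctrl and CKO, and 3.34 and 3.76 CPM in male Ctrl and CKO. Ezh2 itself was at 145 to 166 CPM in female Ctrl and 84.5 and 107 CPM in female CKO, and at 96.6 to 144 CPM in male Ctrl and 82.4 to 85.8 CPM in male CKO. Every CKO library was below every Ctrl library of its sex, with a log2 fold change of -0.68 in females (edgeR adjusted p = 0.02) and -0.53 in males, where it missed the threshold (edgeR adjusted p = 0.0527). The counts cover the whole gene and do not measure the deleted part.

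The promoters of 3 members are shown because the results below turn on them: Peg3 fell in CKO germ cells, and Mest and Plagl1 differed in opposite directions between the sexes. Mest has several annotated starts, of which 1 is given. Each runs from 250 bases before to 50 bases after the annotated start, 5′ to 3′ on the gene's strand, from RefSeq on GRCm38.p6, an assembly that differs from the mm9 build of the counts. CpG dinucleotides, the sites of DNA methylation in imprinted control regions, are in capitals. The Peg3 promoter is at chr7:6730370-6730669 on the minus strand, that of Mest at chr6:30737800-30738099 on the plus strand and that of Plagl1 at chr10:13090582-13090881 on the plus strand.
Peg3: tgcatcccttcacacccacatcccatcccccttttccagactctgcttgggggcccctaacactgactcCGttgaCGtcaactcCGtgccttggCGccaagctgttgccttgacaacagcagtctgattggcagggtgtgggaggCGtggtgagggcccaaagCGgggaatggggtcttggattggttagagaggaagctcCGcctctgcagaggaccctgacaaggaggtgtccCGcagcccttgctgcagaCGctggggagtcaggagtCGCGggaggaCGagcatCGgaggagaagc
Mest: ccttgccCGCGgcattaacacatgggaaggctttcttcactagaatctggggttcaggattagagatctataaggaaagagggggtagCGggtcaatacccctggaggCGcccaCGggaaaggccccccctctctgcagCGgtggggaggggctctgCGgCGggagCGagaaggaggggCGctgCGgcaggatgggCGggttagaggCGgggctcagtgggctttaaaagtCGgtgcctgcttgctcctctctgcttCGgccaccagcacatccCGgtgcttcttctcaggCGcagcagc
Plagl1: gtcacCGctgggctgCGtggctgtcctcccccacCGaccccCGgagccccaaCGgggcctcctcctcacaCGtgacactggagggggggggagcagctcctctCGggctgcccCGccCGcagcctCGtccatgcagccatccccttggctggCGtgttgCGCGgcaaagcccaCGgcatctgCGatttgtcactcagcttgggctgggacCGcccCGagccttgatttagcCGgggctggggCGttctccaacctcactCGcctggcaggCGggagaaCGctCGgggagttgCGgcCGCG

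These promoters held 13 CpG in Peg3, 17 in Mest and 26 in Plagl1, against a median of 7 over 32851 promoters of the same length. That placed them at the 62.1, 68.6 and 83.1 percentiles of all promoters, whose 90th percentile was 31 CpG. The hexamer TGCCGC, which the imprint-protecting zinc finger protein ZFP57 recognises when methylated, was searched on both strands and occurs in 11.6% of all promoters. It matched at 2 places in the Mest promoter and 1 in the Plagl1 promoter, and it did not match in that of Peg3. Another annotated Mest start, with its window at chr6:30733256-30733555, had 8 CpG and 0 matches. The core CCATNTT of the factor YY1, also searched on both strands and present in 16.1% of promoters, matched in none of the 3. A match or its absence describes the letters in these windows only.

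Peg3 was the most abundant member per length in both Ctrl groups. Levels of different genes were compared as RPKM, which divides CPM by the annotated exon length in kilobases. In female Ctrl germ cells the order ran from Peg3 (33.1 ± 3.7 RPKM, SD, n = 3) through Ndn (8.95 ± 2.14), Plagl1 (7.65 ± 2.24), Impact (4.71 ± 0.931), Mest (3.57 ± 0.52), Igf2 (2.36 ± 1.38), Zdbf2 (1.92 ± 0.277) and Nnat (0.31 ± 0.17) to Peg10 (0.0189 ± 0.0117). From Ndn down to Zdbf2 the SD ranges of neighbours in this order overlapped, while Peg3, Nnat and Peg10 stood apart from their neighbours. In male Ctrl germ cells it ran from Peg3 (32.4 ± 3.7 RPKM, n = 4) through Mest (20.9 ± 7.73), Ndn (8.39 ± 1.37), Impact (3.44 ± 0.877), Zdbf2 (1.24 ± 0.132), Nnat (0.837 ± 0.526), Plagl1 (0.506 ± 0.301) and Igf2 (0.366 ± 0.12) to Peg10 (0.0246 ± 0.0271). From Zdbf2 down to Igf2 the SD ranges of neighbours overlapped, and those of Peg3 and Mest nearly met. Peg3 stood at the 88.1 percentile of tested genes per length in female Ctrl and the 87.2 percentile in male Ctrl, and Peg10 at the 2.2 and 3.4 percentiles.

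In CKO germ cells Peg3 no longer held the first place. Ndn led in female CKO with 13.1 ± 0.687 RPKM (n = 2) before Peg3 with 10.4 ± 2.44, and Mest led in male CKO with 20.4 ± 1.86 RPKM (n = 3) before Peg3 with 13.9 ± 2.19. The SD ranges of Ndn and Peg3 in female CKO overlapped. Peg3 made up 52.9% of the summed RPKM of the 9 members in female Ctrl and 23.4% in female CKO, and 47.5% in male Ctrl and 29.6% in male CKO.

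**Figure D1:**
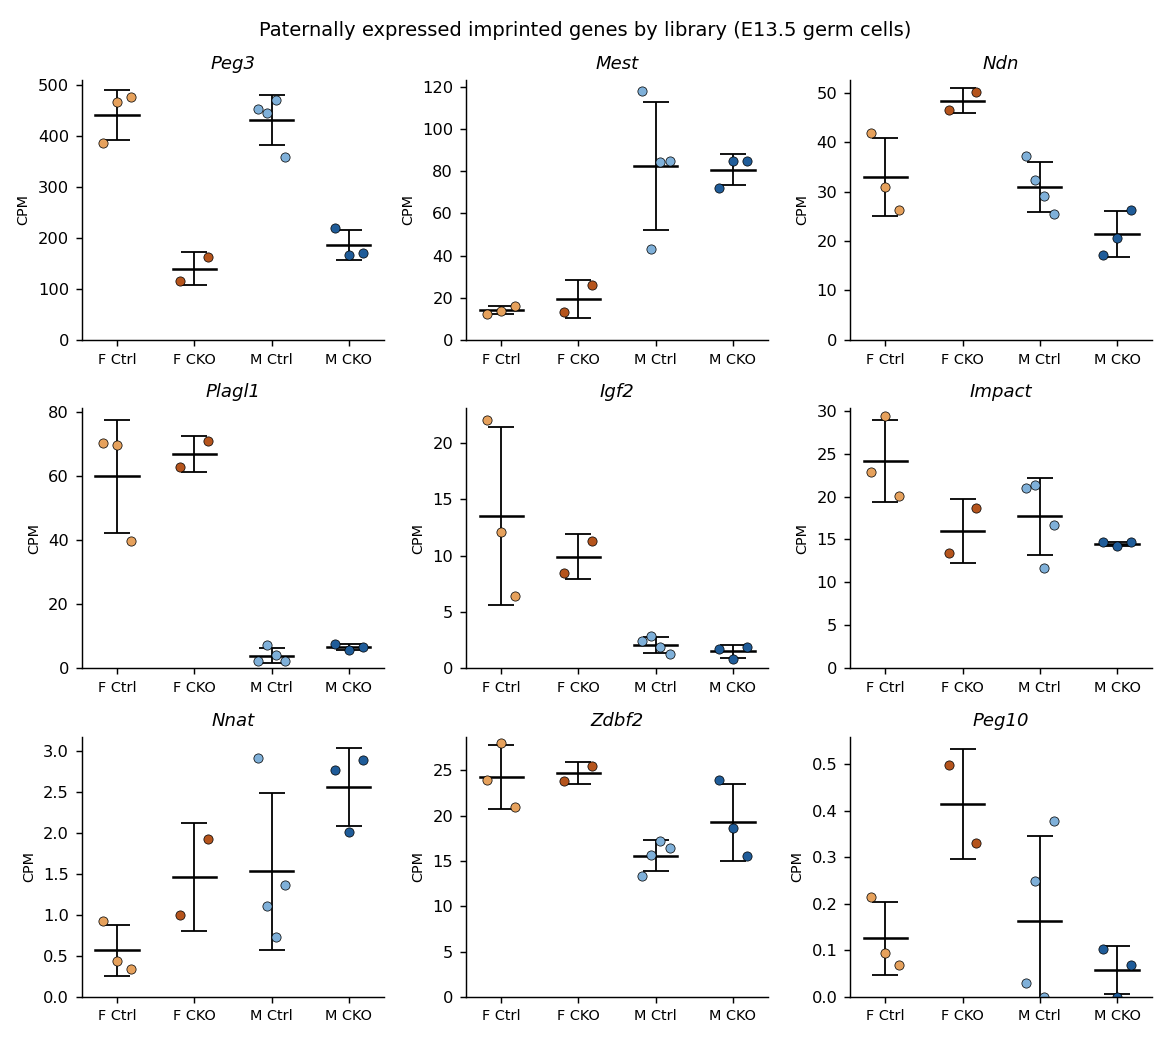
Expression of the 9 matched members in each library, in CPM on linear axes from 0, for female (F) and male (M) Ctrl and CKO embryos. Each point is 1 embryo, horizontal lines are group means and bars are ±1 SD, drawn only above 0. Peg3 is lower in every CKO library than in any Ctrl library of either sex, while Mest, Plagl1 and Igf2 separate by sex.

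Peg3 was the 1 member that passed an adjusted p under 0.05 in edgeR for CKO against Ctrl, and it fell in both sexes. It encodes a zinc finger protein that acts in growth, maternal behaviour and the regulation of other genes. Its level in female Ctrl embryos 1 to 3 was 385, 465 and 475 CPM, and in female CKO embryos 1 and 2 it was 116 and 162 CPM. In males it was at 452, 444, 470 and 359 CPM in Ctrl embryos 1 to 4 and at 219, 166 and 171 CPM in CKO embryos 1 to 3. The highest CKO library of either sex was therefore below the lowest Ctrl library. The log2 fold change was -1.67 in females (SE 0.18, 95% interval -2.07 to -1.26, edgeR adjusted p = 9e-04), a 3.17-fold lower level, and -1.22 in males (SE 0.14, 95% interval -1.55 to -0.89, edgeR adjusted p = 0.00167), a 2.33-fold lower level. The female effect minus the male effect was -0.45 on the log2 scale (95% interval -0.95 to 0.05, edgeR adjusted p = 0.613), so a difference between the sexes was not shown. In bulk samples fewer cells that express a gene and less RNA per cell cannot be told apart. The smallest count behind these values was 3966.

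Against all genes, the fall of 1 of 9 members in females stood beside 4.16% of 16708 tested genes called lower and 3.01% called higher, with 0 members higher. At an unadjusted p under 0.05 there were 4 of 9 members in females, beside 23.3% of all genes. In males 1 of 9 was lower and 0 higher, beside 0.497% and 1.2% of all genes, and 3 of 9 had an unadjusted p under 0.05, beside 16.7% of all genes. With scaling by library size only, 652 of 1009 calls in females were higher, against 503 of 1198. A gene was called at an edgeR adjusted p under 0.05 over all tested genes. CPM ranges did not overlap between female CKO and Ctrl for 5 of 9 members, 3 higher and 2 lower, while 44.6% of all genes had ranges that did not overlap with 2 embryos against 3. In males this held for Peg3 alone, 1 of 9, against 15% of all genes. The median log2 fold change of the members was 0.16 in females and -0.28 in males, and that of all genes 0 and -0.02. In none of the 9 members was the CKO effect called different between the sexes, and 0% of all genes were called higher or lower in this comparison in edgeR. At an unadjusted p under 0.05 it took in 1 of 9 members, Ndn, and 1401 genes (8.39%), and DESeq2 called 50 genes. The sign of the fold change was the same in both sexes for 6 of 9 members (66.7%) and for 66.4% of all genes.

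**Figure D2:**
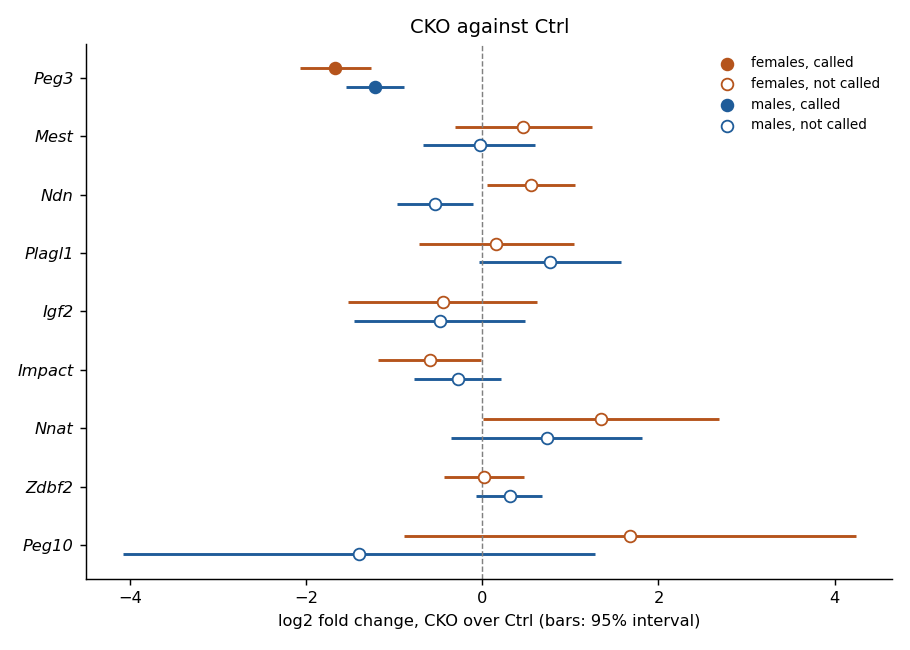
Log2 fold change of each matched member, CKO over Ctrl, in females and in males. Bars are 95% intervals from the SE and 8 residual degrees of freedom, and filled points passed an adjusted p under 0.05 in edgeR. Peg3 is the only filled point in each sex, at -1.67 and -1.22, and the intervals of Peg10 are the widest.

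The neighbours of the members on the chromosome did not pass the CKO test. Of 23 tested neighbours, 0 passed in edgeR in either sex, while 8 in females and 5 in males had an unadjusted p under 0.05, beside 23.3% and 16.7% of all genes. Beside Peg3, Usp29, a ubiquitin protease gene that starts next to Peg3 on the other strand and is also paternally expressed, was at 14.2, 19 and 14.7 CPM in female Ctrl and 9.22 and 11.2 CPM in female CKO. In males it was at 36.4, 51.3, 45.4 and 48.3 CPM in Ctrl and 36.9, 26.4 and 27.5 CPM in CKO. The CKO values of Usp29 lay below all Ctrl values in females, while 1 CKO library reached the Ctrl range in males. The log2 fold changes were -0.65 (edgeR adjusted p = 0.0728) and -0.58 (0.0931). Zim1, a maternally expressed zinc finger gene of the same cluster, was near 1 CPM or lower in every group, with log2 fold changes of 0.11 and -0.87 and edgeR adjusted p of 0.943 and 0.522. Peg3 did not differ by the test between the sexes in Ctrl (log2 fold change 0.03, 95% interval -0.29 to 0.35), whereas Usp29 was lower in females than in males by a log2 fold change of -1.51 (edgeR adjusted p = 2.29e-05). Whether the effects on the 2 genes differ was not tested.

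**Figure D3:**
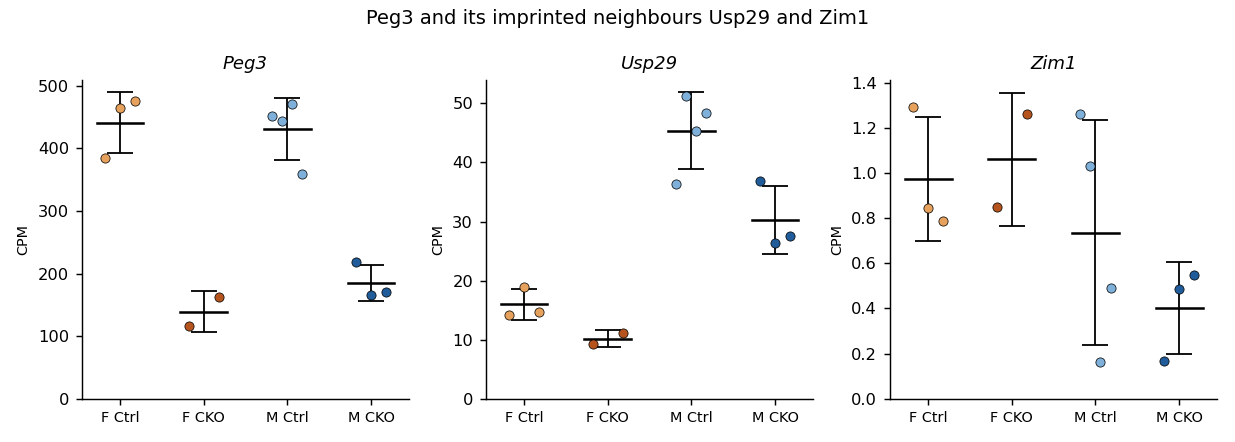
Peg3 and its imprinted neighbours Usp29 and Zim1 by library, in CPM on linear axes from 0, for female (F) and male (M) Ctrl and CKO embryos. Points are embryos, lines are means and bars ±1 SD. Peg3 differs by genotype in both sexes, and Usp29 is higher in the males, from 26.4 to 51.3 CPM, than in any female.

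The 5 genes whose profile over the 12 libraries was most like that of Peg3 were Plcb2, Wasf3, Zfp27, Fanci and Csrnp3. Likeness was the root mean square difference between log2 CPM profiles centred on their own means, among 9770 genes of at least 5 CPM on average. It was 0.29 for Plcb2, a phospholipase C gene, 0.33 for Wasf3, which encodes a regulator of the actin cytoskeleton, and 0.33 for the zinc finger gene Zfp27. It was 0.39 for Fanci, a gene of DNA crosslink repair, and 0.4 for Csrnp3. Fanci was the most abundant of them in CPM, with means of 109 in female Ctrl, 57.7 in female CKO, 105 in male Ctrl and 63 in male CKO. Wasf3 had means of 30.6, 13.4, 29 and 16.8 CPM in the same order. None of these 5 genes is on the lists of imprinted genes used here, and the shared profile is a description of these libraries.

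Among growth regulators, Plagl1 and Igf2 separated by sex and not by genotype. Plagl1 encodes a zinc finger transcription factor that restrains proliferation and acts on other imprinted genes, and Igf2 encodes insulin-like growth factor 2, a fetal growth factor. Plagl1 was at 70.3, 69.5 and 39.6 CPM in female Ctrl and 62.9 and 70.9 CPM in female CKO. Plagl1 in males was at 2.25, 7.18, 4.24 and 2.16 CPM in Ctrl and 7.68, 5.69 and 6.64 CPM in CKO. The lowest female library was more than 5 times the highest male library. In Ctrl the log2 fold change of females over males was 3.93 (SE 0.35, edgeR adjusted p = 3.65e-06), a 15.3-fold higher level, and in CKO it was 3.32 (SE 0.4, edgeR adjusted p = 4.83e-05).

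The CKO effect on Plagl1 was 0.16 in females (95% interval -0.72 to 1.04) and 0.77 in males (95% interval -0.04 to 1.57, edgeR adjusted p = 0.289), neither of which passed. Without male Ctrl 2, the Ctrl male with the highest Plagl1, the male effect was 1.21 and passed (edgeR adjusted p = 0.0345). Its neighbour Phactr2, a phosphatase and actin regulator gene, was higher in females too, with 22.3 to 26.8 CPM in female Ctrl and 3.55 to 6.47 CPM in male Ctrl (log2 fold change 2.33, edgeR adjusted p = 8.47e-06). Another listed neighbour of Plagl1, the ribosome assembly gene Ltv1, was at 242 and 209 CPM on average in female and male Ctrl. It did not pass (0.21, edgeR adjusted p = 0.118).

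Igf2 was at 22, 12.1 and 6.42 CPM in female Ctrl and 8.49 and 11.3 CPM in female CKO. Male Igf2 was at 2.39, 2.85, 1.89 and 1.25 CPM in Ctrl and 1.69, 0.867 and 1.93 CPM in CKO. Every female library was above every male library, with a spread of more than 3-fold within female Ctrl. In Ctrl females over males the log2 fold change was 2.69 (SE 0.4, edgeR adjusted p = 0.000177), and in CKO 2.72 (SE 0.48, edgeR adjusted p = 0.000682). The CKO effects were -0.45 in females (95% interval -1.52 to 0.62) and -0.48 in males (95% interval -1.46 to 0.49) and did not pass. Exons of Gm49394, annotated on the same strand, cover 62.8% of the Igf2 exon length, so reads of the 2 genes cannot be told apart there. H19, the maternally expressed noncoding gene beside Igf2, was at 7.68 to 12.4 CPM in female Ctrl and 2.12 to 4.66 CPM in male Ctrl (log2 fold change 1.69, edgeR adjusted p = 0.000455). Igf2 and H19, whose parental copies are used in opposite ways in somatic cells, were thus both higher in Ctrl females. Pregranulosa marker sums were also higher in every female than in every male library. Of the 6 markers, 4 were higher and 2 lower in Ctrl females than in Ctrl males. Irx3, the most abundant, was at 9.23 CPM on average in female Ctrl and 0.708 in male Ctrl. The 2 lower ones were Kitl (1.19 and 2.52 CPM) and Fst (1.28 and 2.1 CPM). The part of pregranulosa cells in the differences of Plagl1 and Igf2 was not tested.

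Mest showed the opposite sex difference. It encodes a hydrolase-like protein of mesodermal tissues and is a growth-promoting imprinted gene. It was at 12.1, 13.9 and 16.2 CPM in female Ctrl and 13.1 and 25.8 CPM in female CKO. In male Ctrl it was at 118, 43.2, 84.2 and 85 CPM, and in male CKO at 72.1, 84.8 and 85 CPM. All males were above all females. In Ctrl the log2 fold change of females over males was -2.55 (SE 0.3, edgeR adjusted p = 3.15e-05), a 5.86-fold lower level in females, and in CKO -2.05 (SE 0.36, edgeR adjusted p = 0.000648).

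The CKO effect on Mest was 0.46 in females (95% interval -0.31 to 1.24) and -0.03 in males (95% interval -0.67 to 0.6) and did not pass in either. Female CKO 2, which had the highest Mest of the females, also had the highest stromal marker sum at 32.5 CPM. In males it was otherwise: male Ctrl 2, with the lowest male Mest, had the highest stromal sum of male Ctrl (17.4 CPM), and male CKO 2, with the lowest male stromal sum (5.62 CPM), had Mest at 84.8 CPM. Male Ctrl 1, with the highest Mest of all, had the highest Sertoli marker sum at 45.4 CPM. Male Ctrl 2 was at 20.6 CPM for Sertoli markers, and male CKO 2 had the lowest male sum at 15.7 CPM. The part of these cell types in the Mest values was not tested. The last exons of Mest overlap those of Copg2 on the opposite strand over 23.1% of the annotated Mest exon length, and the libraries do not mark strand. Copg2, a coat protein gene of vesicle transport, was at 167 ± 30 CPM in female Ctrl and 160 ± 51.4 CPM in male Ctrl and did not differ by the test (log2 fold change 0.06, edgeR adjusted p = 0.844).

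Ndn had opposite signs of the CKO effect in the 2 sexes. It encodes necdin, a MAGE family protein that restrains cell division and promotes differentiation of neurons. It was at 41.8, 31 and 26.3 CPM in female Ctrl and 46.6 and 50.2 CPM in female CKO. Ndn in males was at 37.3, 32.3, 29.1 and 25.4 CPM in Ctrl and 17.2, 20.6 and 26.3 CPM in CKO. Both female CKO libraries were above all female Ctrl libraries, while male CKO 3 lay within the male Ctrl range. The log2 fold changes were 0.55 in females (SE 0.22, edgeR adjusted p = 0.145) and -0.54 in males (SE 0.19, edgeR adjusted p = 0.163), and neither passed. Their difference was 1.09 (SE 0.29, 95% interval 0.43 to 1.75), with an unadjusted p of 0.00209 and an edgeR adjusted p of 0.397. In Ctrl the sexes did not differ by the test (log2 fold change 0.09, edgeR adjusted p = 0.725), whereas in CKO Ndn was higher in females by 1.18 (SE 0.22, edgeR adjusted p = 0.000937).

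Other genes of the Ndn cluster were low. Magel2, a relative of Ndn, was at 0.576 CPM on average in female Ctrl, 1.58 in female CKO, 0.136 in male Ctrl and 0.276 in male CKO. Mkrn3, a ubiquitin ligase gene linked to the timing of puberty, was at 5.54, 5.62, 6.25 and 4.21 CPM in the same order, and Peg12 at 5.75, 3.51, 5.42 and 5.2 CPM. In both CKO comparisons, 0 of these 3 genes passed in edgeR, with adjusted p from 0.229 to 0.977 and an unadjusted p under 0.05 for Mkrn3 in males (0.0272). Ube3a, a ubiquitin ligase gene expressed from the maternal copy in neurons, was abundant at 183, 156, 168 and 147 CPM and did not pass either.

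Zdbf2 and Impact were at moderate levels in all groups, and neither passed the CKO test. Zdbf2, a zinc finger gene that acts in the feeding behaviour of newborn mice, was at 24, 28 and 21 CPM in female Ctrl and 23.8 and 25.5 CPM in female CKO. Male Zdbf2 was at 13.3, 15.7, 17.2 and 16.4 CPM in Ctrl and 23.9, 18.6 and 15.5 CPM in CKO. The female Ctrl libraries were all above the male Ctrl libraries (log2 fold change 0.64, SE 0.16, edgeR adjusted p = 0.00713). Among CKO embryos the ranges overlapped and the difference of 0.35 did not pass (edgeR adjusted p = 0.173). The CKO effect on Zdbf2 was 0.02 in females (95% interval -0.43 to 0.47) and 0.31 in males (95% interval -0.07 to 0.68). Its neighbours differed by sex in both directions. Adam23, a cell adhesion gene, was at 20.8 CPM on average in female Ctrl and 6.82 in male Ctrl (log2 fold change 1.61, edgeR adjusted p = 0.00058), and Fastkd2, a gene of mitochondrial RNA processing, at 46.4 and 97.5 CPM (-1.07, edgeR adjusted p = 6.81e-06).

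Impact encodes a regulator of the GCN2 pathway, which controls translation under amino acid shortage. It was at 22.9, 29.4 and 20.1 CPM in female Ctrl and 13.4 and 18.7 CPM in female CKO, without overlap. In males it was at 21, 21.3, 11.7 and 16.7 CPM in Ctrl and 14.7, 14.3 and 14.7 CPM in CKO, within the Ctrl range. The log2 fold changes were -0.59 in females (95% interval -1.18 to -0.01, edgeR adjusted p = 0.177) and -0.28 in males (95% interval -0.77 to 0.21, edgeR adjusted p = 0.55). Females over males gave 0.45 in Ctrl (edgeR adjusted p = 0.102) and 0.14 in CKO (0.688). In limma-voom the difference in Ctrl was 0.8 and passed (adjusted p = 0.00417).

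Nnat and Peg10 were the least expressed members. Nnat encodes neuronatin, a small membrane protein of developing brain and endocrine cells. It was at 0.921, 0.438 and 0.343 CPM in female Ctrl and 0.995 and 1.93 CPM in female CKO, and at 2.92, 1.11, 0.728 and 1.36 CPM in male Ctrl and 2.77, 2.01 and 2.89 CPM in male CKO. These are 10 to 100 counts per library. The CKO effects of 1.35 in females (95% interval 0.01 to 2.69, edgeR adjusted p = 0.18) and 0.73 in males (95% interval -0.35 to 1.81, edgeR adjusted p = 0.472) did not pass. In Ctrl, Nnat was lower in females than in males (log2 fold change -1.43, SE 0.51, edgeR adjusted p = 0.0404), although the ranges overlapped. This call was lost in 11 of 19 alternative analyses, with adjusted p of 0.128 without female Ctrl 2, 0.14 without female Ctrl 3 and 0.0952 in limma-voom. Without male Ctrl 1, the highest male Ctrl library, the log2 fold change was -0.91 (edgeR adjusted p = 0.134). Nnat lies within an intron of Blcap, which was at 70 and 70.3 CPM in female and male Ctrl.

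Peg10, a gene derived from a retrotransposon and needed in the placenta, had 0 to 17 counts per library. It was at 0.215, 0.0938 and 0.0686 CPM in female Ctrl, 0.498 and 0.331 CPM in female CKO, 0.0292, 0.248, 0 and 0.379 CPM in male Ctrl and 0.102, 0 and 0.0688 CPM in male CKO. Both female CKO libraries were above all male CKO libraries, and the log2 fold change of 2.78 between them did not pass (95% interval -0.03 to 5.58, unadjusted p = 0.0393, edgeR adjusted p = 0.088). It passed in the fit to the compared groups alone (2.78, edgeR adjusted p = 0.0291) and in limma-voom (3.29, adjusted p = 0.0227). The CKO effect did not pass in either sex, and its 95% interval ran from -0.89 to 4.24 in females and from -4.08 to 1.28 in males. Sgce, which shares the promoter region of Peg10, was at 0.234 CPM on average in female Ctrl and 1.19 in female CKO (log2 fold change 2.32, edgeR adjusted p = 0.139). Casd1, the next gene, was at 26.8 and 19.9 CPM (-0.43, edgeR adjusted p = 0.161).

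**Figure D4:**
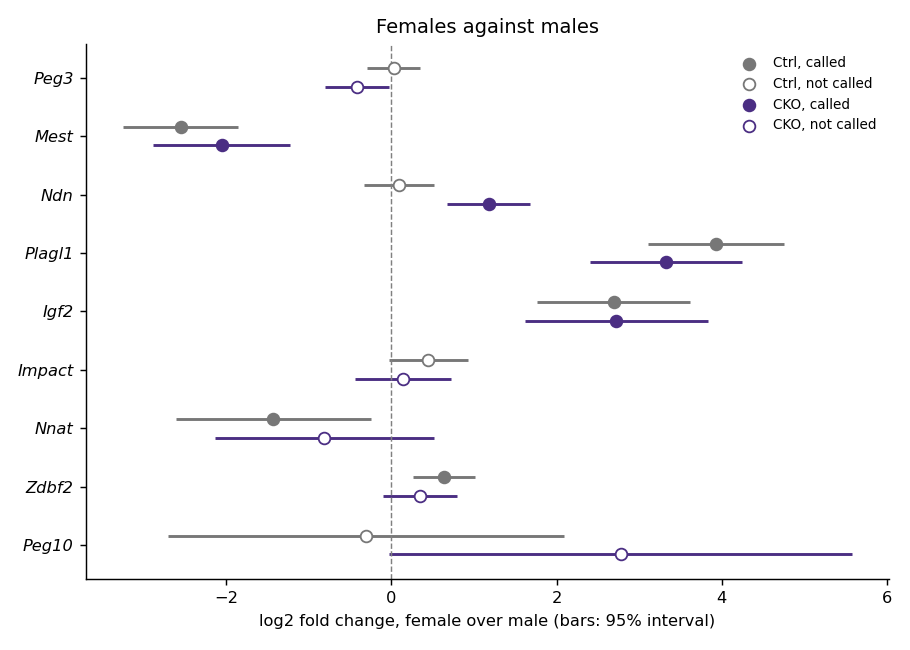
Log2 fold change of each matched member, females over males, among Ctrl and among CKO embryos. Bars are 95% intervals from the SE and 8 residual degrees of freedom, and filled points passed an adjusted p under 0.05 in edgeR. Plagl1 (3.93 and 3.32) and Igf2 (2.69 and 2.72) lie to the right and Mest (-2.55 and -2.05) to the left in both genotypes.

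Sex differences were thus called for 5 of 9 members in Ctrl, with Plagl1, Igf2 and Zdbf2 higher and Mest and Nnat lower in females. Among all genes, 20.1% were called higher and 19.4% lower in Ctrl females. With scaling by library size only, 4062 of 6654 calls were higher, against 3358 of 6604. The ranges of 4 of 9 members did not overlap between the sexes in Ctrl, against 43.4% of all genes. In CKO 3 of 9 members were higher in females (Plagl1, Igf2 and Ndn) and 1 lower (Mest), beside 19.4% and 19% of all genes, and with scaling by library size only 4336 of 6548 calls were higher, against 3239 of 6411. Ranges did not overlap for 7 of 9 members in CKO, with 64.2% of all genes. The sex comparison in Ctrl shares its embryos with the CKO comparisons, so these values are set side by side only.

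Other imprinted genes were counted beside the shares of all genes, 3.01% higher and 4.16% lower in female CKO and 1.2% and 0.497% in male CKO. Of 21 other paternally expressed genes listed, 17 matched and 14 were tested. In females 1 was higher and 0 lower in CKO, with a median log2 fold change of -0.1, and in males 0 were called, with a median of 0.02. At an unadjusted p under 0.05, 4 of these 14 passed in males, beside 16.7% of all genes. The called gene was Dlk1, which encodes a Notch-related growth regulator. It was at 7.89, 5.38 and 5.18 CPM in female Ctrl and 18.2 and 12.1 CPM in female CKO (log2 fold change 1.3, edgeR adjusted p = 0.0464). Slc38a4, an amino acid transporter gene, was not called in CKO but was at 208 CPM on average in female Ctrl against 41.6 CPM in male Ctrl (log2 fold change 2.32, edgeR adjusted p = 0.000186), and was named after its values were seen. Of 27 maternally expressed genes listed, 25 matched and 23 were tested, with 2 higher and 1 lower in female CKO and 0 called in male CKO in edgeR, where 4 of 23 passed at an unadjusted p under 0.05, again beside 16.7% of all genes. Igf2r, the receptor that clears Igf2, fell in females from between 136 and 175 to 79.8 and 94 CPM (-0.81, edgeR adjusted p = 0.0104). Cd81 (0.72, edgeR adjusted p = 0.0247) and the noncoding gene Meg3 (1.44, edgeR adjusted p = 0.0396) rose in females. Male Igf2r, though not called, was at 96.3 to 108 CPM in Ctrl and 62.9 to 88.9 CPM in CKO. The male ranges of Cd81 and Meg3 overlapped. In Ctrl, 11 of the 23 maternally expressed genes were higher and 2 lower in females, beside 20.1% and 19.4% of all genes. The median log2 fold change of the 23 was 0.83. It was 0.09 for the 9 paternally expressed members, 0.21 for the 14 others and 0 for all genes.

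**Figure D5:**
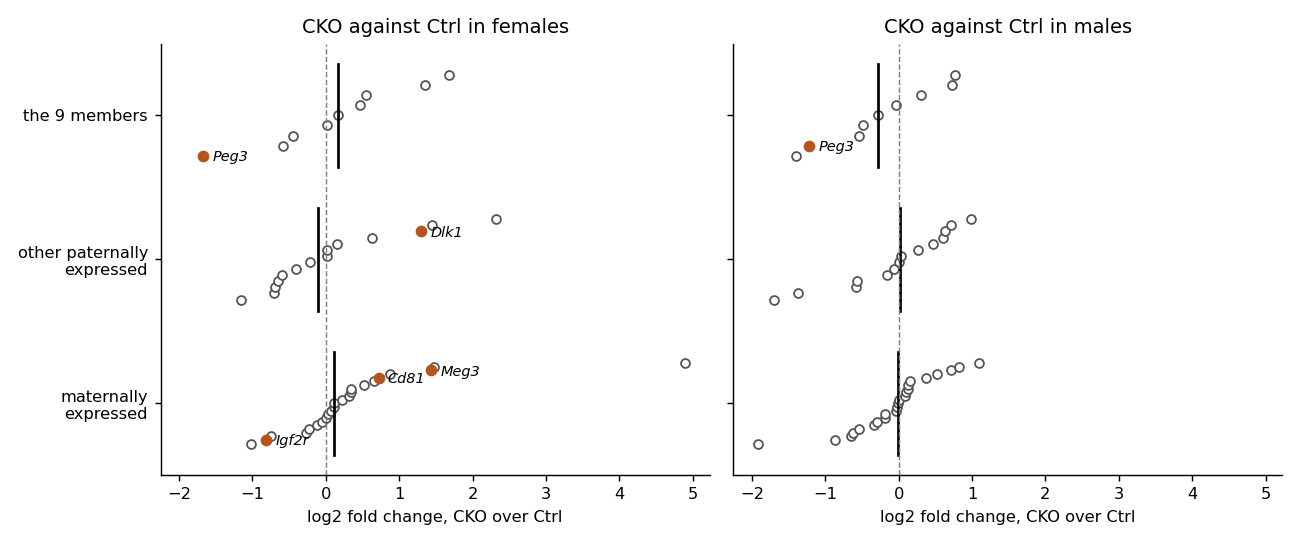
Log2 fold change, CKO over Ctrl, of the tested genes on 3 lists of imprinted genes, in females (left) and males (right). Each circle is 1 gene, filled and named where the adjusted p was under 0.05 in edgeR, and vertical bars are list medians. Medians lie between -0.28 and 0.16, and Peg3 is the only gene filled in both panels. The rightmost circle in females is Calcr, which had no counts in female Ctrl, so that its position depends on the prior count of the fit.

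Genes that respond to or carry Igf2, and genes that protect imprints, were counted from lists, to be read beside 3.01% of all genes higher and 4.16% lower in female CKO and 1.2% and 0.497% in male CKO. Of 18 genes of the insulin-like growth factor axis 2 were higher and 1 lower in female CKO, and 1 higher and 0 lower in male CKO. Igfbp2, which encodes a carrier protein that binds the growth factor, rose in both sexes, from 18.2, 14.8 and 8.58 to 42 and 34.2 CPM in females (log2 fold change 1.46, edgeR adjusted p = 0.0125) and from between 4.03 and 6.52 to between 14 and 18.9 CPM in males (1.62, edgeR adjusted p = 0.00976). Insr, the insulin receptor gene, rose in females (1.04, edgeR adjusted p = 0.0291), and Igf2r, which fell, is also on this list. The receptor gene Igf1r, through which Igf2 signals, had log2 fold changes of 0.38 and 0.05 and did not pass. Of 17 genes that establish, protect or erase imprints, 1 was higher and 3 lower in female CKO and 1 higher and 0 lower in male CKO. Zfp57 rose from 0.377 to 0.706 CPM in female Ctrl to 2.84 and 2.92 CPM in female CKO (2.41, edgeR adjusted p = 0.0149). Dppa3 (-0.65), a protector of the maternal genome, and Dnmt1 (-0.85), the maintenance methyltransferase, fell in females with edgeR adjusted p of 0.0147 and 0.0177, as did Zfp445 (-0.81, 0.0477), an imprint protector like Zfp57, named after its values were seen. Dnmt3b, a methyltransferase of new methylation, rose in males (0.92, edgeR adjusted p = 0.0213). Uncalled ranges of the other sex also separated for Dnmt1, Zfp57 and Dnmt3b. Male Ctrl and CKO were at 414 to 497 and 215 to 373 CPM for Dnmt1, and 0.303 to 1.32 and 1.66 to 1.93 CPM for Zfp57. Dnmt3b was at 6.88 to 10.1 CPM in female Ctrl and 12.8 and 13.7 CPM in female CKO. Male ranges of Dppa3 and Zfp445 overlapped. The CKO effect was called different between the sexes for 0 of the 17 genes. In female CKO the summed endothelial markers were also lower than in female Ctrl, at 146 and 174 against 248 to 311 CPM, of which Pecam1, which germ cells express themselves, gave 129 and 158 against 238 to 299 CPM. The other 6 of the 7 endothelial markers had positive log2 fold changes in female CKO. The medians over 9 stromal and 5 red blood cell markers were 1.65 and 3.53, with 0 of these called and 3 of the 9 stromal markers negative. Stromal sums of female CKO 1 and 2 were 11.8 and 32.5 CPM, against 2.72 to 15.7 CPM in female Ctrl. Their red blood cell sums were 16.2 and 1.14 CPM, against 0.0921 to 2.1 CPM. Female CKO 1 for stromal and female CKO 2 for red blood cell markers thus lay within the Ctrl range. The part of these cells in the female results was not tested.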

How the data were processed

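RNA of sorted germ cells was amplified with SMART-seq V4, per the labels' protocols, a kit that does not mark strand. The authors deposited raw read counts per Ensembl gene. The submitters' processing notes list the builds mm9 and NCBIM37, featureCounts, TopHat2 2.0.11, Trimmomatic 0.33 and CASAVA 1.8.4. How multiply mapped reads were counted is not given in the sources used here. Symbols and exon lengths came from GENCODE M21 (GRCm38), and 32919 of 37991 identifiers matched a symbol.

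Genes were kept with filterByExpr (minimum count 10, minimum total 15) and scaled by TMM (factors 0.926 to 1.11). A quasi-likelihood fit in edgeR 4.0.16 (R 4.3.3, limma 3.58.1) had 1 coefficient per group over all 12 libraries, with 8 residual degrees of freedom, and p-values were adjusted by Benjamini-Hochberg over all 16708 genes. SEs were derived from the F statistic. Where nothing says that embryos came from separate litters, p-values measure the spread between these embryos. Library pairs of a group differed by more than counting noise (chi-square per gene 17.1 to 67.7). On simulated counts for the female comparison (16215 genes), 78% of 100 genes changed 2-fold in either direction and 96% of 100 changed 4-fold were recovered.

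The members and the gene lists were chosen with earlier results of these data known. The text names all members, Ezh2, up to 4 called genes per list with the smallest adjusted p, neighbours of members, and the 5 genes most like Peg3. Alternatives were DESeq2 1.42.0, limma-voom with quality weights, median-of-ratios factors, scaling by library size only, a block for replicate number, a fit to the compared groups alone, no filter, a filter of 5 CPM in 2 libraries, and leaving out each library.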

Additional observations from a re-analysis of the deposited data

Results flagged for a closer look

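Ndn and Peg10 had CKO effects of opposite direction in the 2 sexes: in females every CKO library lay above the mean of the Ctrl libraries, and in males every CKO library lay below it. How many of all genes meet this condition was not counted. The sign of the CKO effect was the same in both sexes for 66.7% of the members and 66.4% of all genes. The female effect minus the male effect was 1.09 for Ndn (SE 0.29, edgeR adjusted p = 0.397) and 3.08 for Peg10 (SE 1.61, edgeR adjusted p = 0.628), so neither difference passed over all genes tested. Peg10 rests on 0 to 17 counts per library.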

How the results depend on the processing

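The fall of Peg3 passed in all 20 alternatives in each sex, with log2 fold changes from -1.92 to -1.44 in females (adjusted p up to 0.00919) and -1.35 to -1.15 in males (up to 0.0192). Over single members and alternatives, 832 values kept direction and side of the threshold, 9 newly passed, 11 lost the call (all Nnat between Ctrl sexes) and 27 changed sign, all in uncalled values. The cause of these changes was not tested.

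Members called in female CKO numbered 2 in limma-voom, where Ndn passed (0.6, adjusted p = 0.0462), and those in male CKO ranged from 1 to 2 when 1 library was left out, with 2 only without male Ctrl 2. Calls over all genes also rose in these settings. In female CKO they were 2035 in limma-voom against 1198 in the main fit, and in male CKO 502 without male Ctrl 2 against 284. Replicate numbers were those of the sample titles, which differ from the numbers in the column headers for some female libraries. Deviations of same-numbered libraries correlated across genes at 0.11 and -0.02 in females and -0.02, 0.03 and 0.01 in males. These values do not show whether embryos were paired or shared a litter. With the replicate number as a block, 105 genes were called in male CKO. The block gave values of changed sign for Zdbf2 in female CKO (-0.03), Peg3 (-0.05) and Peg10 (0.58) between Ctrl sexes, and Impact between CKO sexes (-0.02). Limma-voom did so for Zdbf2 in female CKO (-0.04), Mest in male CKO (0.02) and Peg10 between Ctrl sexes (1.22).

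Over all genes, female CKO calls numbered 1989 in DESeq2 and 2035 in limma-voom, and 317 (without female CKO 2) to 1730 (without male Ctrl 2) when 1 library was left out. Male CKO calls numbered 63 with only the groups compared, 992 in DESeq2, 1098 in limma-voom, and 36 (without male CKO 2) to 502 (without male Ctrl 2) on leaving out 1 library, with 48 without male CKO 3 and 85 without male Ctrl 3. The sex difference in the CKO effect gave 2 genes with no filter, 50 in DESeq2, and 0 to 3 on leaving out 1 library. Calls between CKO sexes ranged from 4063 (without female CKO 1) to 6957 on leaving out 1 library.

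On leaving out 1 library, values that changed sign ranged as follows in log2 fold change. In female CKO, Igf2 ranged from -0.77 to 0.1, Plagl1 from -0.05 to 0.3, Zdbf2 from -0.06 to 0.14 and Mest from -0.1 to 0.88. Mest in male CKO ranged from -0.25 to 0.19. The sex difference in the CKO effect ranged from -0.29 to 0.58 for Igf2 and -0.07 to 0.91 for Mest. Between Ctrl sexes, Ndn ranged from -0.11 to 0.24, Peg3 from -0.05 to 0.12 and Peg10 from -0.91 to 0.56. Impact between CKO sexes ranged from -0.12 to 0.36.

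Scaling by library size only moved the median of all genes by 0.11 in female CKO and by 0.1 and 0.18 between Ctrl and CKO sexes. Under it Impact between Ctrl sexes (0.56, adjusted p = 0.0499) and Zdbf2 between CKO sexes (0.53, adjusted p = 0.0424) passed. Of the other 7 newly passing values, Impact between Ctrl sexes passed in limma-voom (0.8, adjusted p = 0.00417), Zdbf2 between CKO sexes without male CKO 1 (0.55, 0.0441) and Peg3 between CKO sexes without female CKO 2 (-0.67, 0.0234). Peg10 between CKO sexes passed in limma-voom (3.29, 0.0227) and when fitted to the CKO groups alone (2.78, 0.0291), and the last 2 were Ndn, above, and Plagl1 in male CKO without male Ctrl 2 (1.21, 0.0345). Nnat and Peg10 gave no value under the filter of 5 CPM in 2 libraries, and the sex difference could not be fitted with only the groups compared. Where leaving out a library left female CKO with 1 embryo, that embryo was assumed to vary like those of the other groups. Depth limits Peg10 and Nnat, and 2 female CKO embryos limit the female comparison.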

Other observations

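Phlda2, a maternally expressed gene that restrains placental growth, had a large sex difference and was chosen after its values were seen. It was at 270, 324 and 234 CPM in female Ctrl and 319 and 378 CPM in female CKO. In males it was at 0.818, 9.45, 1.22 and 0.757 CPM in Ctrl and 2.88, 1.94 and 2.3 CPM in CKO, a log2 fold change of 6.56 for females over males in Ctrl. Male Ctrl 2, which had the highest Phlda2 of the males, also had the highest Slc38a4 of the males (74.5 CPM, the other 6 males 20 to 43.5), the highest Igf2 of the males (2.85 CPM) and the lowest Mest (43.2 CPM). These genes too were picked after their values were seen. The other members called between the Ctrl sexes were not at an extreme in male Ctrl 2. Plagl1 was at 7.18 CPM there and 7.68 CPM in male CKO 1. Zdbf2 was at 15.7 CPM, with the other males from 13.3 to 23.9 CPM, and Nnat at 1.11 CPM, with the others from 0.728 to 2.92 CPM.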
